A study of Mus musculus with 2 samples.

Results

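The 44 genes described here are type I interferon-stimulated genes, chosen as a list of gene symbols out of 55450 genes in the matrices, with no expression value in the rule. The list was drawn up with earlier results of these data known, so counts of members that were higher in one library describe the list and are no independent support for a direction. All 44 were found by symbol, and their UMIs (unique molecular identifiers, each standing for 1 captured transcript) were summed by cell class in each of 2 single-cell RNA libraries. The WT library came from Kcnj2f/f mice, in which Kcnj2, the gene of the potassium channel Kir2.1, carried loxP sites but no Cre was present. The KO library came from Lyz2-Cre-Kcnj2f/f mice, in which Cre driven by the Lyz2 locus acts in macrophages, monocytes and neutrophils. All mice carried the floxed allele and a subcutaneous B16F10 melanoma, a transplantable mouse tumour line, which was taken at day 10. Each library held CD45+ cells sorted by FACS from the tumours of 3 pooled mice, so there was 1 library per genotype. No test between genotypes was possible. All 95% intervals given with CPM (the usual unit of UMIs scaled to the total of a class), ratios and shares cover counting error only, and each difference is one between these 2 libraries. The labels give the purpose as the impact of Kir2.1 on the tumour microenvironment.

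Type I interferons are cytokines that most cells can release after sensing foreign or misplaced nucleic acid. They bind the receptor IFNAR, whose kinases Jak1 and Tyk2 phosphorylate Stat2. Stat2 joins Irf9 in a complex named ISGF3, which enters the nucleus and binds the interferon-stimulated response element in the promoters of its target genes. The products of these genes block virus replication at many steps, and in tumours the same programme runs in myeloid cells and T cells and is known for its links to antigen presentation and T cell recruitment.

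The members lay on 15 chromosomes, several in clusters of related genes. The 5 IFIT genes lay together on chromosome 19, the 5 PYHIN genes on chromosome 1, the 5 Schlafen genes on chromosome 11 and the 5 OAS family genes on chromosome 5. Rsad2 (chr12:26442746-26456452, minus strand, GRCm38) and Cmpk2 (chr12:26469204-26479837, plus strand) were neighbours that point away from each other. RefSeq promoters of build GRCm38.p6 were found for 35 members. Usp18, Mx1, Mx2, Oas2, Dhx58, Zbp1, Ifi204, Rtp4 and Parp14 had no entry. The letters GAAANNGAAA, a strict form of the interferon-stimulated response element, were searched on both strands in the 250 bases before each start, where the other strand reads TTTCNNTTTC. The motif was present in 18 of the 35 members (51.4%) and in 918 of 26990 other genes (3.40%). It was not particular to the members, since it was also present in 8 of 13 genes led by interferon gamma (61.5%) and in 18 of 60 other interferon-induced genes (30%), from lists described further on. A match is a description of the sequence and not evidence of binding. The stretches below stand before some of the members with large ratios (Ifit1, Ifit3, Ifit3b, Rsad2, Oas3, Ifi206 and Ifi213). Ifit1bl1 and Slfn5, with larger ratios than Ifi213 in macrophage-like cells, also held the motif and are not printed. Isg15 was added because it differed little between the libraries. Bst2 was added because it was far more abundant in 1 class than in the others. Capitals mark 1 match to the motif or its reverse form per stretch. Further matches in the Ifit1, Isg15 and Bst2 stretches, some overlapping the marked one, are left in lower case. Each stretch is read 5′ to 3′ along the strand of its gene.
Ifit1: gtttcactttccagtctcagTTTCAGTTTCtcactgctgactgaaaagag
Ifit3: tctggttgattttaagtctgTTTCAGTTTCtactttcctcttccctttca
Ifit3b: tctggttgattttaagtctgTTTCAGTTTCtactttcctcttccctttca
Rsad2: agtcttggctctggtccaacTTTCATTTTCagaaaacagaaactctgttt
Oas3: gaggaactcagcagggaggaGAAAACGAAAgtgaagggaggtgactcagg
Ifi206: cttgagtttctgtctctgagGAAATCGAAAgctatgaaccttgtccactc
Ifi213: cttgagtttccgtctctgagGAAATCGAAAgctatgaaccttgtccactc
Isg15: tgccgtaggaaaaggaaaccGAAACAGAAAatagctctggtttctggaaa
Bst2: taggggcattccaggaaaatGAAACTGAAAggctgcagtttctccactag
The Ifit1 stretch lies at chr19:34640784-34640833 on the plus strand, with the first base of the motif 85 bases before the start. The stretches of Ifit3 (chr19:34583387-34583436, plus strand) and Ifit3b (chr19:34607783-34607832, plus strand) held the same 50 bases, which shows how alike these neighbouring copies are. The Rsad2 stretch lies at chr12:26456543-26456592 and that of Oas3 at chr5:120777705-120777754, both on the minus strand. Ifi206 (chr1:173491329-173491378, minus strand) and Ifi213 (chr1:173599316-173599365, minus strand) also have nearly the same stretch. Isg15 (chr4:156200855-156200904, minus strand) held 3 such motifs in the 250 bases and Bst2 (chr8:71537567-71537616, minus strand) held 2. Among members with the motif, the log2 ratios of KO over WT in macrophage-like cells reported below ran from 0.34 to 3.03 with a median of 0.90. Among the 17 members with a promoter but no motif, Oasl1 and Ifit2 included, they ran from 0.24 to 1.96 with a median of 0.67. Both sets thus held members with large ratios, and the presence of these letters did not separate them.

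The WT library held 9677 barcodes and 55219440 UMIs, and the KO library 6356 barcodes and 57047535 UMIs. Filters left 8936 WT and 5686 KO cells, with medians of 4398.5 and 8013 UMIs, so the KO cells were read more deeply. The libraries shared 63 barcodes, of which 61 WT and 63 KO cells were analysed. The targeted gene Kcnj2 was at 24.9 CPM in WT (20.5 to 30.1, 108 UMIs) and 9.91 CPM in KO macrophage-like cells (7.83 to 12.4, 78 UMIs), and at 7.27 and 2.74 CPM in monocyte-like cells (24 and 12 UMIs). The labels do not say which part of Kcnj2 is floxed, so 3' reads need not report the deletion. Cells were clustered without the members, and 16 classes were named from marker genes with the suffix -like. In each named class discussed below, its own markers were at a higher CPM than outside it. Of the 16, 12 classes had at least 50 cells in each library and were compared. In some myeloid classes markers of other cells were higher in the WT library: 30 T and B cell marker genes together were at 945.9 and 256.7 CPM in WT and KO macrophage-like cells, and at 2579 and 560.1 CPM in monocyte-like cells.

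The baseline of the programme, meaning the summed CPM of the 44 members in the WT library, differed by class. It was highest in plasmacytoid dendritic cell-like cells at 4875 CPM (4772 to 4981) and macrophage-like cells at 4842 CPM (4777 to 4908), whose intervals overlapped. Monocyte-like cells followed at 4283 CPM (4212 to 4354). The lymphoid and remaining dendritic classes were between 1677 CPM in B cell-like cells (1643 to 1712) and 3278 CPM in type 1 conventional dendritic cell-like (cDC1-like) cells (3208 to 3349). Melanoma-like cells, the tumour cells that came through the CD45+ sort, were lowest at 526 CPM (501.7 to 551.1). Plasmacytoid dendritic cells are the specialised interferon producers, and with macrophage-like and monocyte-like cells they stood at the top of the baseline among the compared classes.

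A few members carried much of these sums. In plasmacytoid dendritic cell-like cells Bst2, the tethering protein also called tetherin and a known surface marker of that cell type in mice, gave 67.2% of all member UMIs. Bst2 was at 3274 CPM there. It was also one of the markers used to name that class. Its rank there, and the baseline it carried, are therefore not independent of the name. The next class, type 2 conventional dendritic cell-like (cDC2-like) cells, had 229.2 CPM. In macrophage-like cells Slfn2, a Schlafen protein that keeps immune cells quiescent, gave 33.1% of member UMIs, and its 1602 CPM was above the 936.5 CPM of monocyte-like cells. In cDC1-like cells the DNA-binding PYHIN protein Ifi205 gave 25.7% of member UMIs and stood at 843.4 CPM, against 194.2 CPM in macrophage-like cells. Among the compared classes, other members had their highest WT level outside the myeloid cells. Samd9l, an antiproliferative protein, was highest in B cell-like cells at 283.8 CPM, and the exonuclease gene Isg20 in regulatory T cell-like cells at 152.1 CPM. Stat2, a subunit of ISGF3, was highest in plasmacytoid dendritic cell-like cells at 149.9 CPM. Ifit1 and Ifit3, whose proteins bind viral RNA, were highest in CD8 T cell-like cells at 47.8 and 61.0 CPM. The programme therefore had no common order of classes across its members.

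**Figure D1:**
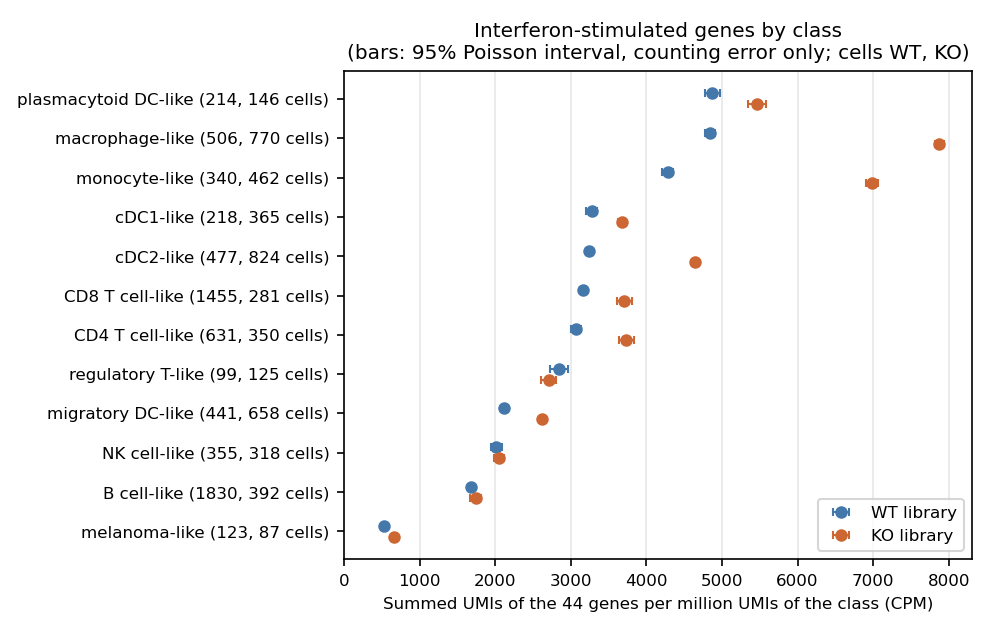
Summed CPM of the 44 members in each compared class (one row per class, WT and KO points with 95% Poisson intervals, counting error only). The KO point lies furthest to the right of the WT point in macrophage-like cells (4842 and 7875 CPM) and monocyte-like cells (4283 and 6980 CPM), while the pairs of NK cell-like and B cell-like cells nearly coincide.

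The difference between the libraries was concentrated in the myeloid classes. In macrophage-like cells (506 WT and 770 KO cells) the members summed to 4842 and 7875 CPM in the WT and KO libraries, a log2 ratio of KO over WT of 0.70 (0.68 to 0.72). Monocyte-like cells (340 and 462 cells) gave 4283 and 6980 CPM, a log2 ratio of 0.70 (0.68 to 0.73). In cDC2-like cells (477 and 824 cells) the sums were 3243 and 4640 CPM and the log2 ratio was 0.52 (0.49 to 0.54). A lower step was formed by melanoma-like cells (526 and 659.9 CPM, 0.33), migratory dendritic cell-like cells (2120 and 2625 CPM, 0.31), CD4 T cell-like cells (3064 and 3735 CPM, 0.29) and CD8 T cell-like cells (3160 and 3708 CPM, 0.23). The log2 ratios of cDC1-like cells (3278 and 3678 CPM) and plasmacytoid dendritic cell-like cells (4875 and 5463 CPM) were 0.17 and 0.16. Some of these values moved by more than 1.5 times with the processing. The ratio of CD8 T cell-like cells was 0.10 without the 5 cells holding most member UMIs and 0.37 with the members among the genes used for clustering. That of migratory dendritic cell-like cells was 0.12 with the members among those genes, and that of plasmacytoid dendritic cell-like cells ran from 0.10 to 0.44 over 12 alternatives. The intervals of 3 classes included 0. These were the B cell-like class at 0.05 (-0.01 to 0.12), the NK cell-like class at 0.02 (-0.05 to 0.09) and the regulatory T cell-like class at -0.07 (-0.15 to 0.01). The B cell-like class was made of 2 clusters held unequally by the libraries. Cluster 2 (948 WT and 332 KO cells) had a ratio of -0.02 (-0.10 to 0.05) and cluster 5 (882 and 60 cells) one of 0.34 (0.15 to 0.52), so the value of the whole class does not describe both. The macrophage-like and monocyte-like intervals lay above those of all 10 other compared classes, and the 2 overlapped each other. With the shared barcodes left out the values of macrophage-like, monocyte-like and cDC2-like cells stayed at 0.70, 0.70 and 0.52, whereas that of melanoma-like cells moved from 0.33 to 0.77.

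In the macrophage-like class all 44 members had at least 20 UMIs over both libraries, and 37 were higher in KO by a log2 ratio of 0.5 or more, 0 were lower by as much and 7 lay between. Of 11053 genes with at least 20 UMIs in this class, 11.3% were higher and 11.9% lower by that amount. The median log2 ratio of the members was 0.78, beside -0.005 over all genes tested. Every member had a ratio above 0, and the members differed in size from 0.24 (Slfn1) to 3.03 (Ifit3b).

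**Figure D2:**
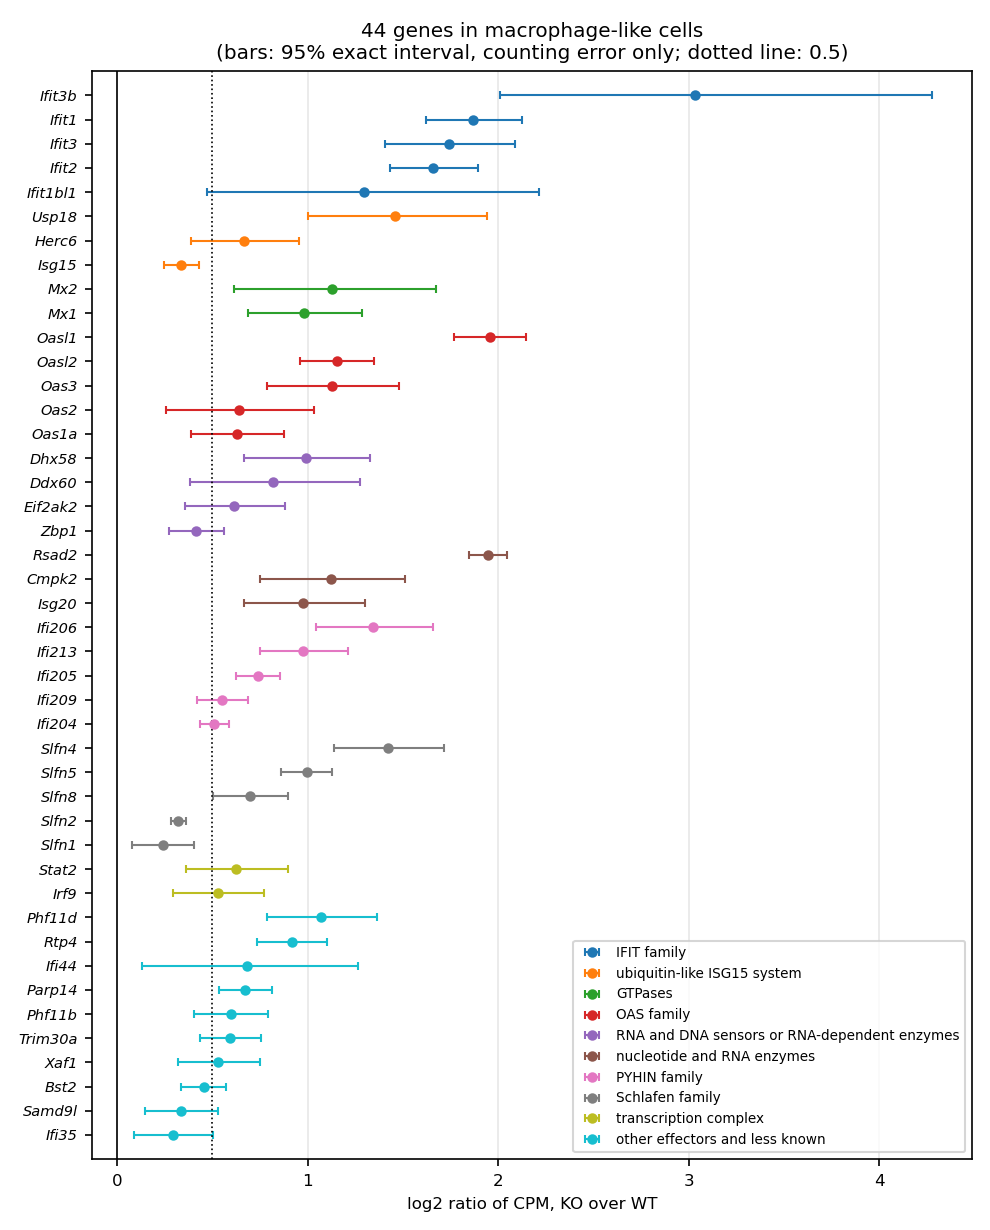
Log2 ratio of KO over WT CPM of each of the 44 members in macrophage-like cells, grouped by role, with 95% conditional binomial intervals for counting error. Ifit3b (3.03), Oasl1 (1.96) and Rsad2 (1.95) lie furthest to the right, and Slfn1 (0.24) and Ifi35 (0.29) nearest to 0.

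The IFIT family had the second-largest summed log2 ratio of the 10 roles, from 101.6 to 348.3 CPM (1.78, 1.63 to 1.93). IFIT proteins bind viral RNA and block its translation. Ifit1 stood at 34.4 and 125.6 CPM in the WT and KO libraries, a log2 ratio of 1.87 (1.62 to 2.13). Ifit2 was at 42.3 and 133.5 CPM (1.66, 1.43 to 1.89) and Ifit3 at 19.6 and 65.6 CPM (1.74, 1.41 to 2.09). Ifit3b, the near copy of Ifit3, was at 1.85 and 15.1 CPM from 8 and 119 UMIs, with a log2 ratio of 3.03 and a wide interval (2.01 to 4.28). Over the last 600 transcript bases, 18.0% of the 50-base words of Ifit3 also occur in Ifit3b, so reads may be split between the copies. Ifit1bl1 also had few UMIs, 15 and 67, and was at 3.46 and 8.51 CPM (1.30, 0.47 to 2.21).

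Enzymes of nucleotide and RNA metabolism had the largest summed ratio, 260.9 and 931.2 CPM (1.84, 1.75 to 1.93), and most of it was Rsad2. Rsad2 encodes viperin, which makes a chain-terminating nucleotide that stops viral polymerases. It stood at 219.1 CPM (205.4 to 233.5) in the WT library and 845.3 CPM (825.1 to 865.9) in the KO library, a log2 ratio of 1.95 (1.85 to 2.05). Its genomic neighbour Cmpk2, a mitochondrial nucleotide kinase, was at 17.1 and 37.2 CPM (1.12, 0.75 to 1.51), a smaller ratio. The RNA exonuclease gene Isg20 was at 24.7 and 48.7 CPM (0.98, 0.66 to 1.30).

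OAS proteins sense RNA foreign to the cell, and the catalytic ones make oligoadenylates that act as a second messenger. The family summed to 206.2 and 516.8 CPM (1.33, 1.22 to 1.43). Oasl1, an OAS-like protein known to restrain the translation of Irf7, was at 60.5 and 234.8 CPM, a log2 ratio of 1.96 (1.77 to 2.15). Oasl2 was at 64.0 and 142.3 CPM (1.15, 0.96 to 1.35) and Oas3 at 20.6 and 44.8 CPM (1.13, 0.79 to 1.48). Oas2 was at 17.6 and 27.3 CPM (0.64, 0.25 to 1.04). Oas1a was at 43.6 and 67.6 CPM (0.63), with the reservation that 64.1% of its 3' words also occur in Oas1g. The Mx GTPases, which trap viral nucleoproteins, were both higher in KO. Mx1 was at 27.9 and 55.1 CPM (0.98, 0.69 to 1.28) and Mx2, annotated as a polymorphic pseudogene in mice, at 9.01 and 19.7 CPM (1.13, 0.61 to 1.67).

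In the ISG15 system the ratios were unequal. Isg15, the ubiquitin-like modifier itself, was at 322.6 and 407.3 CPM, a log2 ratio of only 0.34 (0.25 to 0.43), short of the 0.5 used for counting. Usp18, the protease that removes ISG15 and also dampens signalling at the receptor, was at 10.9 and 29.9 CPM (1.46, 1.003 to 1.94). Herc6, the ISG15 ligase of mice, was at 33.0 and 52.5 CPM (0.67, 0.39 to 0.95). The intervals of Isg15 and Usp18 did not overlap.

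RNA and DNA sensors summed to 205.5 and 302.3 CPM (0.56, 0.45 to 0.67). Dhx58, which encodes the RNA helicase LGP2, was at 22.9 and 45.5 CPM (0.99), and the helicase gene Ddx60 at 13.2 and 23.3 CPM (0.82). Eif2ak2, the gene of the RNA-activated kinase PKR, was at 37.9 and 58.1 CPM (0.62). Zbp1, a sensor of Z-form nucleic acid that can start necroptosis, was at 131.6 and 175.6 CPM (0.42, 0.27 to 0.56) and stayed under the 0.5 limit. The transcription complex members were modestly higher in KO: Stat2 was at 36.7 and 56.7 CPM (0.63) and Irf9 at 46.9 and 67.7 CPM (0.53). The exons of Irf9 overlap those of Rnf31 on the same strand.

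The PYHIN family, proteins that bind DNA in the nucleus or cytosol, summed to 838.7 and 1301 CPM (0.63, 0.58 to 0.69). Ifi206 was at 25.4 and 64.5 CPM (1.35, 1.04 to 1.66) and Ifi213 at 46.0 and 90.5 CPM (0.98). The members with more UMIs had smaller ratios, Ifi205 at 194.2 and 324.1 CPM (0.74), Ifi209 at 142.0 and 208.2 CPM (0.55) and Ifi204 at 431.1 and 614.1 CPM (0.51, 0.43 to 0.59). Most of these genes share 3' sequence with relatives, up to 82.9% of words for Ifi205 (with Ifi211) and 67.9% for Ifi209 (with Ifi214), so the split among them is uncertain.

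Schlafen genes, regulators of immune cell growth and quiescence, formed the largest part of the programme by UMIs and had the smallest summed ratio, 1940 and 2585 CPM (0.41, 0.38 to 0.45), next to that of the ISG15 system (0.42). The family was uneven. Slfn4, a myeloid Schlafen gene, was at 28.4 and 76.1 CPM (1.42, 1.14 to 1.71), and Slfn5 at 136.9 and 272.9 CPM (0.99, 0.86 to 1.13). Slfn8 was at 66.3 and 107.5 CPM (0.70). Slfn2 was at 1602 and 2003 CPM (0.32, 0.28 to 0.36) and Slfn1 at 106.7 and 126.0 CPM (0.24, 0.08 to 0.40). With Slfn2, Bst2 and Stat2 left out together, the sum over all remaining members gave 0.88 in place of 0.70, and the part of each of the 3 was not measured.

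Of the remaining 10 effectors, 7 were past the limit, and they summed to 801.8 and 1201 CPM (0.58, 0.53 to 0.64). Phf11d, a PHD finger protein, was at 29.1 and 61.1 CPM (1.07) and Rtp4 at 72.3 and 136.6 CPM (0.92). The ADP-ribosyltransferase gene Parp14 was at 133.7 and 213.0 CPM (0.67), Ifi44 at 8.54 and 13.7 CPM (0.68), Phf11b at 68.8 and 104.0 CPM (0.60) and the tripartite motif gene Trim30a at 102.5 and 154.9 CPM (0.59). Xaf1, a cell death factor, was at 57.7 and 83.5 CPM (0.53). The last 3 were under the limit. Bst2 was at 190.3 and 260.9 CPM (0.46), Samd9l at 75.3 and 95.2 CPM (0.34) and Ifi35 at 63.5 and 77.9 CPM (0.29).

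The macrophage-like class was made of 2 clusters, and the summed difference lay in the larger one. Cluster 3 (432 WT and 715 KO cells), led by Arg1, Ccl7 and Ccl2, had member sums of 5077 and 8059 CPM (0.67, 0.64 to 0.69), with 37 of 44 members higher and 0 lower, beside 12% and 11% of all genes tested there. Cluster 22 (74 and 55 cells), led by Ccl8, Pf4 and C1qa, had 1871 and 1933 CPM (0.05, -0.13 to 0.23). Only 15 members reached 20 UMIs in cluster 22, of which 2 were higher and 4 lower, beside 13% and 26.6% of genes. Its cells were also shallower, with median UMIs of 2494 and 3445 against 9208 and 10440 in cluster 3. In cluster 22 the baseline was thus lower and the interval of the summed ratio included 0. Single members there differed beyond counting error, Ifi204 at 154.6 and 84.6 CPM (-0.87, -1.70 to -0.09) in the opposite direction to cluster 3, and Slfn2 at 258.7 and 355.3 CPM (0.46, 0.001 to 0.91).

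Markers of other cells moved with the macrophage-like and monocyte-like results. In macrophage-like cells all 9 B cell markers and all 10 CD8 T cell markers were lower in KO, the lists being at 465.8 and 80.0 CPM and at 226.1 and 38.2 CPM. None of these genes was at 0 in either library. Monocyte markers were higher in KO there, at 4320 and 5370 CPM, and macrophage markers lower, at 7984 and 6578 CPM. Cells holding 20 or more UMIs of the 30 T and B cell markers, 48 WT and 15 KO cells, could be left out, which gave a log2 ratio of 0.68 for the summed members with 36 higher. Leaving out cells with 10 or more such UMIs gave 0.64 with 34 higher. In monocyte-like cells the same steps left out 87 WT and 10 KO cells, then 110 and 61, and gave 0.67 with 33 higher and 0.59 with 29 higher. The summed ratio thus stayed above 0.5 in both classes without those cells. No share of all genes was counted for these smaller sets of cells, so their member counts stand without a background. The part of the monocyte markers in the summed ratios was not tested.

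Monocyte-like cells showed a difference of the same summed size with another order of roles. All 44 members had at least 20 UMIs, 31 were higher and 0 lower, beside 11.4% higher and 18.0% lower of 10261 genes, and the member median was 0.76. By role the GTPases led with 43.0 and 99.6 CPM (1.21), followed by the OAS family with 209.7 and 459.8 CPM (1.13). The IFIT family was at 106.3 and 209.9 CPM (0.98, 0.80 to 1.16), below its macrophage-like ratio of 1.78 with intervals that did not overlap. The nucleotide and RNA enzymes likewise had 0.85 (0.71 to 1.001) here and 1.84 there. PYHIN genes went the other way, with 0.89 (0.82 to 0.95) in monocyte-like and 0.63 in macrophage-like cells, and so did the Schlafen genes, with 0.66 (0.61 to 0.71) and 0.41. Among single members the largest ratios were those of Oasl1 at 27.3 and 94.8 CPM (1.80, 1.47 to 2.14), Usp18 at 16.4 and 44.8 CPM (1.45) and Oas3 at 31.2 and 81.1 CPM (1.38). The smallest were Samd9l at 79.4 and 93.9 CPM (0.24), Isg15 at 209.1 and 229.8 CPM (0.14, -0.005 to 0.28) and Ifi44 at 8.48 and 6.40 CPM (-0.41, -1.22 to 0.40). Slfn1 was at 157.9 and 309.3 CPM (0.97), past the limit here and under it in macrophage-like cells (0.24). The 9 monocyte markers of this class summed to 6683 and 10380 CPM, and their part in the member difference was not tested.

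**Figure D3:**
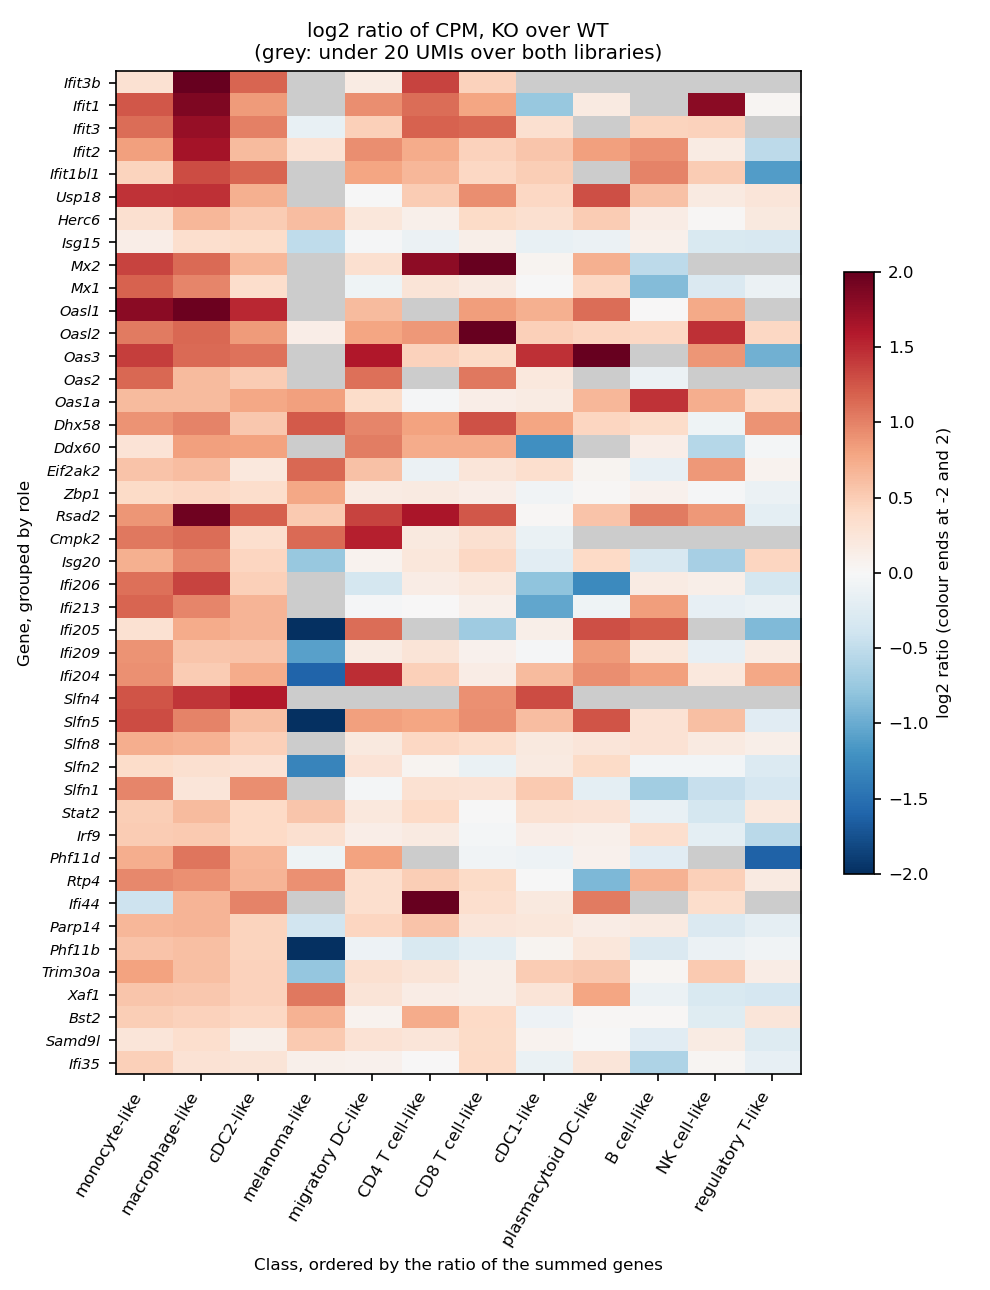
Heat map of the log2 ratio of KO over WT CPM for each member (rows) in each compared class (columns), grey where a member had fewer than 20 UMIs over both libraries. Rsad2 is higher by 0.5 or more in 10 of 12 classes, while Isg15 and Slfn2 reach that in 0 of 12.

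Type 2 conventional dendritic cells, which present antigen to CD4 T cells, were the third class with a broad difference. In cDC2-like cells 26 of 44 members were higher and 0 lower, beside 8.27% higher and 9.8% lower of all genes, with a member median of 0.59. Slfn4 (1.53 and 4.57 CPM, 1.58), Oasl1 (17.3 and 49.3 CPM, 1.51) and Rsad2 (48.8 and 112.3 CPM, 1.20) had the largest ratios. Ifi35 (106.3 and 126.6 CPM, 0.25), Eif2ak2 (46.0 and 52.9 CPM, 0.20) and Samd9l (94.4 and 102.9 CPM, 0.12) had the smallest. In this class T and B cell markers were at 920.4 and 462.2 CPM in the WT and KO libraries. Without cells holding 10 or more of their UMIs the summed ratio was 0.48 with 25 members higher, and no share of all genes was counted for that set. Erythroid markers were at 604.9 and 0.169 CPM, and their part in the result was not tested.

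In each of the 11 compared classes other than B cell-like cells the summed B cell markers were lower in KO. They were at 259.1 and 55.7 CPM in migratory dendritic cell-like cells, where CD4 T cell markers were at 503.5 and 174.3 CPM and cell cycle genes at 135.2 and 59.1 CPM. In NK cell-like cells they were at 453.5 and 149.6 CPM, and macrophage markers at 147.4 and 558.7 CPM. In CD4 T cell-like cells they were at 227.8 and 168.5 CPM, and the 4 erythroid markers summed to 581.5 CPM in WT and were all at 0 in KO. The part of these markers in the member ratios of the 3 classes was not tested.

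The other 2 conventional dendritic classes differed from cDC2-like cells. In migratory dendritic cell-like cells, the mature form on its way to the lymph node, 16 of 43 members with at least 20 UMIs were higher and 0 lower, beside 9.79% and 14.4% of genes. With the members among the genes used for clustering, 12 were higher and 3 lower, with no share of all genes counted for that clustering. Oas3 (4.05 and 12.3 CPM, 1.60), Cmpk2 (1.74 and 5.13 CPM, 1.56) and Ifi204 (22.6 and 62.7 CPM, 1.47) had the largest ratios there, and Mx1 (43.4 and 40.7 CPM, -0.09), Phf11b (163.3 and 151.5 CPM, -0.11) and Ifi206 (11.9 and 9.26 CPM, -0.36) the smallest. In cDC1-like cells, the class specialised in presenting to CD8 T cells, 9 of 43 were higher and 4 lower, beside 9.62% and 8.21% of genes. Its extremes were Oas3 (4.32 and 11.8 CPM, 1.46), Slfn4 (1.96 and 4.85 CPM, 1.31) and Dhx58 (14.9 and 25.8 CPM, 0.79) against Ifi206 (9.81 and 5.63 CPM, -0.80), Ifi213 (20.01 and 9.71 CPM, -1.04) and Ddx60 (5.88 and 2.52 CPM, -1.22). The same pair of PYHIN genes that was higher in KO macrophage-like cells was thus at a lower CPM in KO cDC1-like cells. The Ifi213 intervals, -1.64 to -0.45 here and 0.75 to 1.21 there, did not overlap. The count of 4 lower members was near the share of all genes. T and B cell markers were at 744.1 and 319.6 CPM in WT and KO cDC1-like cells. Without cells holding 10 or more of their UMIs, 10 of 40 members were higher and 1 lower. No share of all genes was counted for that set, and the part of these markers in the pair was not tested.

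Plasmacytoid dendritic cell-like cells had the highest baseline and a small summed ratio. Bst2, which held most of the sum, was at 3274 and 3313 CPM (0.02), and the sum without Bst2, Slfn2 and Stat2 gave 0.44. Of 37 members with at least 20 UMIs, 15 were higher and 2 lower, beside 10.6% and 9.67% of genes, and the member median was 0.41. Oas3 (2.32 and 10.5 CPM, 2.18), Usp18 (33.6 and 82.2 CPM, 1.29) and Ifi205 (7.53 and 18.4 CPM, 1.29) were furthest up, and Slfn1 (12.7 and 11.2 CPM, -0.19), Rtp4 (9.84 and 5.26 CPM, -0.90) and Ifi206 (12.7 and 5.26 CPM, -1.28) furthest down.

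Among lymphocytes, the CD4 and CD8 T cell-like classes had larger summed ratios than the B, NK and regulatory T cell-like classes. CD4 T cell-like cells had 15 of 39 members higher and 0 lower, beside 11.4% and 9.4% of genes. Their largest ratios were those of Ifi44 (2.89 and 12.6 CPM, 2.12), Mx2 (3.26 and 11.2 CPM, 1.79) and Rsad2 (9.76 and 30.4 CPM, 1.64). Their smallest were Eif2ak2 (26.4 and 24.5 CPM, -0.11), Isg15 (79.9 and 74.0 CPM, -0.11) and Phf11b (127.7 and 103.1 CPM, -0.31). CD8 T cell-like cells had 12 of 44 higher and 1 lower, beside 12.3% and 11.7%. Mx2 (2.07 and 12.4 CPM, 2.58), Oasl2 (4.27 and 18.3 CPM, 2.10) and Dhx58 (8.90 and 21.5 CPM, 1.27) led, and Slfn2 (561.3 and 509.6 CPM, -0.14), Phf11b (152.9 and 134.2 CPM, -0.19) and Ifi205 (4.27 and 2.61 CPM, -0.71) were lowest. Several of these rest on few molecules, such as 17 and 19 UMIs for Mx2 in CD8 T cell-like cells.

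NK cell-like cells had 10 of 37 members higher and 2 lower, beside 8.72% and 11.4% of genes. Ifit1 (4.67 and 16.3 CPM, 1.80), Oasl2 (4.001 and 11.1 CPM, 1.47) and Oas3 (6.002 and 11.1 CPM, 0.88) led there, and Slfn1 (40.0 and 29.1 CPM, -0.46), Ddx60 (17.3 and 11.6 CPM, -0.57) and Isg20 (16.7 and 10.5 CPM, -0.67) were lowest. B cell-like cells had 9 of 38 higher and 4 lower, beside 9.9% and 18.8%. Oas1a (4.01 and 10.95 CPM, 1.45), Ifi205 (2.37 and 5.47 CPM, 1.21) and Rsad2 (4.19 and 8.601 CPM, 1.04) were at the top in B cell-like cells, and Ifi35 (47.0 and 30.5 CPM, -0.62), Slfn1 (18.9 and 11.7 CPM, -0.69) and Mx1 (8.56 and 4.69 CPM, -0.87) at the bottom. Regulatory T cell-like cells were the class where fewer members were higher than lower, 2 and 6 of 36, beside 12.5% and 14.4%. Dhx58 (7.08 and 13.2 CPM, 0.90), Ifi204 (11.8 and 20.2 CPM, 0.78) and Isg20 (152.1 and 204.7 CPM, 0.43) had the largest ratios in them, and Oas3 (18.9 and 9.67 CPM, -0.97), Ifit1bl1 (15.3 and 7.03 CPM, -1.13) and Phf11d (18.9 and 6.15 CPM, -1.62) the smallest. For 12 of these 18 members the interval of the ratio included 0, so the order of the members in these 3 classes is loose.

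Melanoma-like cells had 12 of 28 members higher and 9 lower, beside 21.1% and 11.4% of genes, and the median of all genes was itself 0.18 there. Dhx58 (1.79 and 4.18 CPM, 1.22), Eif2ak2 (24.5 and 54.1 CPM, 1.14) and Cmpk2 (1.79 and 3.93 CPM, 1.13) were furthest up. Phf11b (11.7 and 2.70 CPM, -2.11), Ifi205 (5.68 and 1.23 CPM, -2.21) and Slfn5 (10.8 and 0.738 CPM from 36 and 3 UMIs, -3.87) were furthest down. Markers of other cells were higher in the WT library of this class, with erythroid genes at 4705 and 0.492 CPM, fibroblast genes at 2232 and 24.6 CPM and monocyte genes at 425.6 and 58.3 CPM. Their part in these values was not tested. The summed ratio of this class was -0.06 without cells holding 10 or more T and B cell marker UMIs, so its direction was not settled.

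Across the 12 classes some members were higher in KO by the limit of 0.5 in most classes and others in none. Rsad2 was higher by that limit in 10 of 12 classes, Dhx58 and Slfn5 in 9 of 12, Oasl1 in 8 of the 9 classes with at least 20 UMIs and Slfn4 in 5 of 5. Isg15, Slfn2 and Ifi35 were higher by it in 0 of 12, although in macrophage-like cells their ratios were above 0 (0.34, 0.32 and 0.29). Each was lower by as much in some class, such as Ifi35 in B cell-like cells and Isg15 and Slfn2 in melanoma-like cells. The modifier Isg15 and its protease Usp18 thus parted across classes as they did in macrophage-like cells: the median ratio of Isg15 over the classes was -0.06, while Usp18 was higher by the limit in 7 of 11.

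Cells were next compared one by one. Each cell was thinned to 2000 UMIs, shallower cells were left out (2235 WT and 576 KO), and a cell with at least 8 different members was counted as high. This class of cells is cut from a range and is no cell type. In macrophage-like cells 21 WT and 48 KO cells stood at exactly 8 members and 29 and 64 at 7. The share of high cells was 20.1% in WT (93 of 462, 16.6 to 24.1) and 39.4% in KO macrophage-like cells (291 of 738, 35.9 to 43.1). Monocyte-like cells had 23.4% (79 of 337, 19.0 to 28.3) and 45.3% (208 of 459, 40.7 to 50), and in cDC2-like cells 18.0% (85 of 473, 14.6 to 21.7) and 31.6% (254 of 804, 28.4 to 34.9). Without thinning the macrophage-like shares were 59.5% and 83.1%. For these 3 classes the WT and KO intervals of the thinned shares did not overlap.

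CD4 T cell-like cells also had a larger share of high cells in KO, 18.9% (63 of 334, 14.8 to 23.5) against 9.57% (54 of 564, 7.28 to 12.3). CD8 T cell-like cells had 12.9% in WT (180 of 1400, 11.2 to 14.7) and 17.3% in KO (48 of 277, 13.1 to 22.3), with overlapping intervals. The same held for cDC1-like cells (10.8% and 16.1%), migratory dendritic cell-like cells (5.91% and 9.21%), plasmacytoid dendritic cell-like cells (5.69% and 9.59%), NK cell-like cells (4.64% and 3.56%), B cell-like cells (2.29% and 1.81%) and the regulatory T cell-like class (17.1% and 11.6%). No melanoma-like cell was high, 0 of 46 and 0 of 29, which allows shares of up to 6.52% and 10.3%. Plasmacytoid dendritic cell-like cells show how the sum and the number of members part: their baseline sum was the highest, but it came from Bst2, and few of their cells were high.

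**Figure D4:**
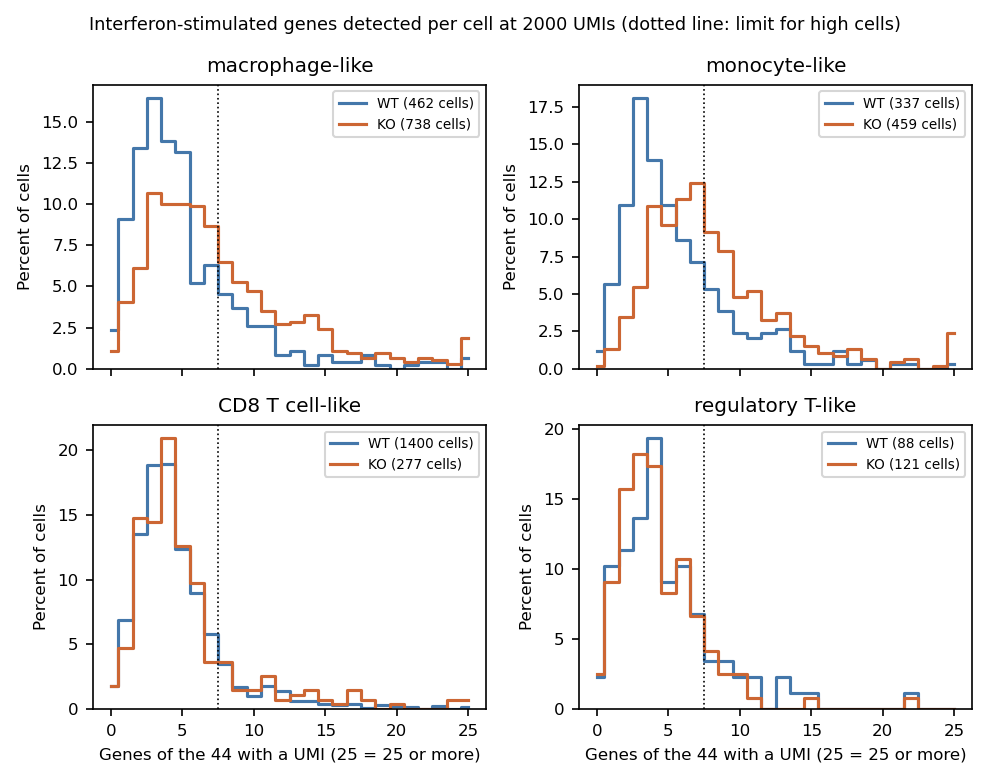
Number of the 44 members with a UMI per cell after thinning to 2000 UMIs, in 4 classes (panels) by library, with the percent of cells on the vertical axis and a dotted line at the limit for high cells. In macrophage-like and monocyte-like cells the KO distribution lies to the right of the WT one, with medians of 6 and 4 and of 7 and 5 members.

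In the macrophage-like class as a whole the shift was seen at the low end, the middle and the high end of the distribution. The 10th percentile, median and 90th percentile of members per cell were 1, 4 and 10 in WT and 2, 6 and 15 in KO. In monocyte-like cells they were 2, 5 and 11 in WT and 3, 7 and 14 in KO. CD8 T cell-like cells had 2, 4 and 8 in WT and 2, 4 and 11 in KO, so that among these values only the 90th percentile differed. The tenth of macrophage-like cells with most member UMIs held 31.7% of them in WT and 32.7% in KO, whereas in CD8 T cell-like cells the share was 32.2% in WT and 37.5% in KO. Member UMIs were thus about as evenly spread over KO as over WT macrophage-like cells. The 2 clusters of that class differed in their high cells. In cluster 3 the shares were 21.8% in WT and 41.5% in KO (418 and 699 thinned cells). In cluster 22 they were 4.55% and 2.56% (44 and 39 cells), so the shift of the class does not describe cluster 22.

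High and other macrophage-like cells differed little in depth, with median UMIs of 8936 and 9290 in WT and 10210 and 10380 in KO, and their mean doublet scores were 0.0719 and 0.0840 in WT and 0.0546 and 0.0536 in KO. Ifnb1, the gene of interferon beta and no member, had a UMI after thinning in 14% of high WT cells (13 of 93, 7.66 to 22.7) and 5.42% of other WT cells (20 of 369, 3.34 to 8.25). In KO the shares were 17.2% (50 of 291, 13 to 22.0) and 9.62% (43 of 447, 7.05 to 12.7). In CD8 T cell-like cells, which are not known to make interferon beta, Ifnb1 was found in 0 of 180 high and 0 of 1220 other WT cells, which allows up to 1.67% and 0.246%, at median UMIs of 5667 and 5459. In KO it was found in 0 of 48 and 1 of 229 such cells (0.437%), at median UMIs of 5050 and 5198. Macrophage-like cells thus held the interferon gene above that background in both libraries, in high and in other cells. Among monocyte-like cells it was found in 0 of 79 high (which allows up to 3.80%) and 1 of 258 other cells of WT (0.388%), and in 7 of 208 (3.37%) and 1 of 251 (0.398%) of KO. Irf7, the transcription factor that amplifies interferon production and also no member, was at 177.4 CPM in high and 24.4 CPM in other WT macrophage-like cells after thinning, and at 391.8 and 94.0 CPM in KO.

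By the way they were counted, high cells hold more of every common member, and the size of that step is given as a description. Rsad2 had a UMI in 43.0% of high and 8.40% of other macrophage-like cells of WT, and in KO the shares were 56.7% and 15.9%. Isg15 was found in 58.1% and 19.8% of WT cells and in 55.3% and 21.0% of KO cells, so its shares within high and within other cells were alike between the libraries. Slfn2 was found in 91.4% and 82.1% of WT cells and marked the high cells poorly. In CD8 T cell-like cells Isg15 was found in 46.1% of high and 6.07% of other WT cells, and in 47.9% and 3.49% in KO. There Rsad2 was found in 11.1% of high WT cells and Ifit3 in 33.3%, whereas in high WT macrophage-like cells Ifit3 was found in 8.602%. High WT cells of the 2 classes thus held Rsad2 and Ifit3 in different shares. Slfn2 was the member found most often in both, in 80.6% of the high CD8 T cell-like cells of WT.

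Co-variation was measured as the Pearson correlation across the thinned cells of 1 class in 1 library, between log2(UMIs + 1) of a member and of the sum of the other members. The cells share library, class and depth, and with few UMIs per gene such correlations are low by construction. In macrophage-like cells 28 members in WT (462 cells) and 38 in KO (738 cells) had a UMI in at least 5% of cells. Their median correlation with the other members was 0.25 in WT and 0.29 in KO, and the median over pairs 0.13 and 0.14. Ifi205 (0.42 and 0.37), Ifi204 (0.40 and 0.40), Isg15 (0.39 and 0.44), Slfn5 (0.39 and 0.45) and Rsad2 (0.36 and 0.47) had the 5 highest values in WT, given with their values in KO. In KO the 5 highest were Rsad2, Slfn5, Isg15, Ifit2 (0.42) and Oasl2 (0.41), of which Ifit2 was not measured in WT. Bst2 was lowest in WT (0.01, and 0.12 in KO), followed by Samd9l (0.13) and Ifi35 (0.14). In KO Oas2 was lowest (0.09), followed by Bst2 and Irf9 (0.12). The closest pair was Ifit2 with Ifit3 in KO (0.61) and Oas3 with Slfn5 in WT (0.38).

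**Figure D5:**
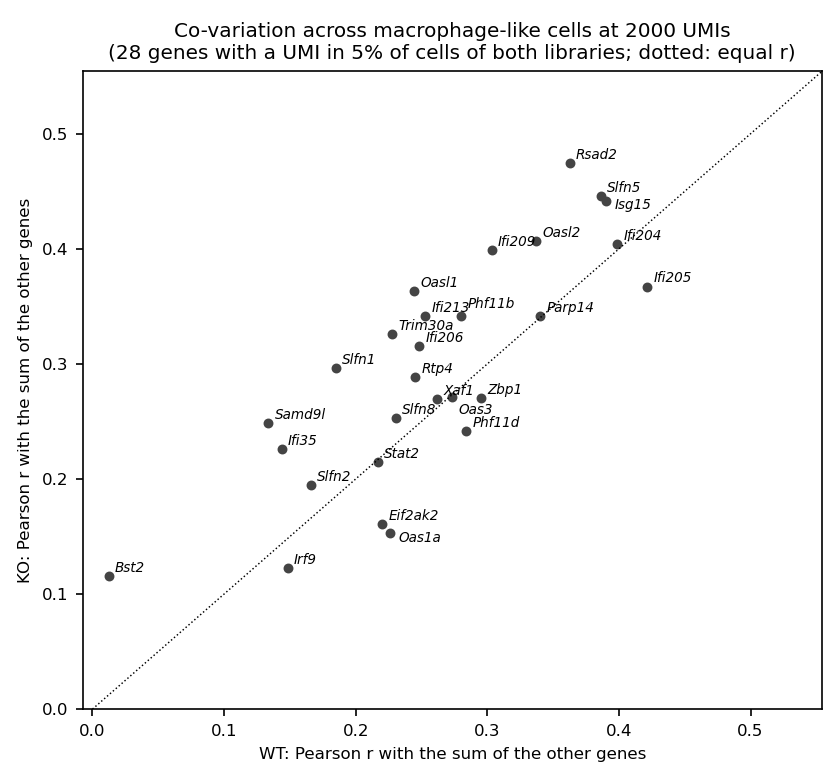
Pearson correlation of each member with the sum of the other members across thinned macrophage-like cells (462 WT and 738 KO cells), WT on the horizontal and KO on the vertical axis, for the 28 members with a UMI in at least 5% of the cells of both libraries; the dotted line marks equal values. Rsad2, Slfn5 and Isg15 lie at the upper right (0.36 to 0.47), and Bst2 and Irf9 at the lower left.

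The median correlation with the other members was similar in monocyte-like cells (0.25 in WT and 0.30 in KO), cDC2-like cells (0.26 and 0.28) and CD8 T cell-like cells (0.20 and 0.26, 1400 and 277 cells). It was lower in B cell-like cells (0.14 and 0.12) and NK cell-like cells (0.09 and 0.13), where members had few UMIs per cell. In CD8 T cell-like cells Ifit1 and Isg15 formed the closest pair (0.45 in WT and 0.61 in KO).

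The genes outside the list that followed the member sum most closely differed between 2 classes. Among 3718 genes in macrophage-like cells the top 10 by mean correlation were Cxcl10 (0.43 in WT and 0.44 in KO), Ifi203 (0.36 and 0.42), Tnf (0.43 and 0.35), Ccl4 (0.37 and 0.38), Mndal, Nfkbiz, Nfkbia, Acod1, Ms4a4c and Gbp2. The 99th percentile of all these genes was 0.25. Tnf, Ccl4, Nfkbiz, Nfkbia and Acod1 are known targets of NF-kappaB, the inflammatory transcription factor, and stand on none of the interferon lists used here. Among 4017 genes in CD8 T cell-like cells, with a 99th percentile of 0.15, the top 10 included Ifi27l2a (0.29 and 0.35), Ly6a (0.26 and 0.35), Irf7 (0.21 and 0.40), Ifi208, Rnf213, Ifi203, Ifi214, Mndal and Daxx. All of those named but Ifi214 stand on the lists of interferon signalling or interferon-induced genes.

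Over all analysed cells the members summed to 2883 CPM in WT and 4238 CPM in KO, a log2 ratio of 0.56 (0.55 to 0.57). In such a sum over the library, a larger share of RNA from a class and a higher level within it cannot be told apart, so the difference of 1355 CPM was split by class. Differences in level within classes, weighted by the mean share of a class in the 2 libraries, gave 996.3 CPM or 73.5% of it, and differences in the shares of classes gave 359.1 CPM. Macrophage-like cells carried the most of the level part, 334.1 CPM or 24.7% of the whole difference. Type 2 conventional dendritic cell-like cells carried 223.0 CPM (16.4%) and monocyte-like cells 187.4 CPM (13.8%). CD8 T cell-like cells carried 48.9 CPM (3.61%) and migratory dendritic cell-like cells 47.6 CPM (3.51%). The shares themselves differed widely, since macrophage-like cells gave 7.97% of WT and 14.1% of KO UMIs and CD8 T cell-like cells 15.1% and 2.74%. The share part was 386.8 CPM in macrophage-like and 402.9 CPM in cDC2-like cells, each above the level part of its class. In monocyte-like cells it was 98.1 CPM, below the level part. It was -424.4 CPM in CD8 T cell-like and -133.8 CPM in B cell-like cells, so the net 359.1 CPM is left from large parts of both signs.

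Other genes of the pathway, from lists of genes that are no members, were counted by the same limit. In macrophage-like cells 8 of 24 signalling genes were higher in KO and 0 lower, with a median of 0.34, beside 11.3% higher and 11.9% lower of all genes in that class. They were Ifnb1 (50.6 and 140.5 CPM, 1.47), Irf7 (70.2 and 191.8 CPM, 1.45), the RNA sensors Ifih1 (137.6 and 321.2 CPM, 1.22), Tlr3 (1.24) and Ddx58 (0.61), the adaptor Mavs (0.90), the kinase Ikbke (0.61) and the feedback inhibitor Socs1 (0.67). The receptor gene Ifnar1 was at 142.9 and 134.0 CPM (-0.09), within the limit.

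Of 69 other interferon-induced genes, 29 were higher in macrophage-like cells and 1 lower, with a median of 0.45, beside the same 11.3% and 11.9%. Higher were Sco1, Mov10, Phf11c, Tdrd7, Oas1g, Phf11a, Parp12, Slfn9, Trim30d, Helz2, Adar, Ifi208, Cxcl10, Daxx, Ifi27l2a, Tor3a, Rnf213, Lgals3bp, Ms4a4c, Ube2l6, Oas1c, Dtx3l, Znfx1, Nt5c3, Parp9, Fcgr1, Mlkl, Pnpt1 and Lgals9. Cxcl10, the chemokine that draws T cells through Cxcr3, was at 980.3 and 1830 CPM (0.90), and Ifi27l2a at 1318 and 2321 CPM (0.82). The single lower gene was Ifi27 (66.3 and 33.8 CPM, -0.97).

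Genes led by interferon gamma, the type II interferon made by T and NK cells, were counted as a list that shares many targets with the members. In macrophage-like cells 3 of 19 were higher (Irgm1, Irgm2 and Socs1) and 2 lower, namely Iigp1 (99.99 and 53.4 CPM, -0.91) and Ifng itself (18.7 and 2.03 CPM, -3.20). Beside 11.3% and 11.9% of all genes these counts were near the background. The median of the list was 0.32 all the same, beside -0.005 over all genes tested, so its genes were not level between the libraries. CD8 T cell markers were at 226.1 and 38.2 CPM in WT and KO macrophage-like cells, and their part in the Ifng value was not tested. In monocyte-like cells 0 of 19 were higher and 7 lower, among them Ciita (114.5 and 59.6 CPM, -0.94), Cd74 (7945 and 4356 CPM, -0.87), H2-Aa (-0.80), H2-Ab1 (-0.67), Iigp1 (-1.55), Cxcl9 (-0.97) and Ifng (-2.77), beside 11.4% higher and 18.0% lower of all genes. Cd74 and the class II genes are also expressed by B cells, whose markers were at 1866 and 139.6 CPM in these cells, and the part of such cells was not tested. CD8 T cell markers were at 322.4 and 35.0 CPM there, and their part in the Ifng value was not tested either. In cDC2-like cells, by contrast, 9 of 19 were higher (Socs1, Cxcl9, Iigp1, Gbp5, Igtp, Irgm1, Gbp3, Irgm2 and Gbp2) and 1, Ifng, lower, beside 8.27% and 9.8% of all genes. CD8 T cell markers were at 93.9 and 32.6 CPM in that class, and their part in Ifng was not tested.

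Signalling genes in monocyte-like cells were 5 of 24 higher (Ifnb1, Irf7, Tlr3, Ifih1 and Irf5) and 1 lower (Ifnar1, 107.0 and 75.2 CPM, -0.51), beside 11.4% and 18.0% of all genes. Ifnb1 rested on 7 and 80 UMIs there, 2.12 and 18.3 CPM (3.11, 1.998 to 4.47). Of the other interferon-induced genes in monocyte-like cells 27 of 69 were higher and 11 lower, the second count being near the share of lower genes in this class (18.0%). The higher ones included Oas1g, Znfx1, Oas1b, Slfn3, Ube2l6, Lgals3bp, Parp12, Ifi27l2a, Rnf213, Lgals9, Daxx, Ifi207, Fcgr1, Adar, Trim30d, Cxcl10, Tdrd7, Trim30b, Ifi211, Ogfr, Tor3a, Ifitm3, Ms4a4c, Phf11a, Ly6e and Pnpt1, and the lower ones Ifi27, Ifitm1, Oas1c, Trim34a, Trim5, Trim21, Ly6a, Phf11c, Tnfsf10, Gm4951 and Cnp. In cDC2-like cells 4 of 24 signalling genes were higher (Ifnb1, Ifih1, Socs1 and Irf7) and 2 lower (Tlr9 and Mavs), and 17 of 70 other interferon-induced genes were higher and 2 lower, beside 8.27% and 9.8% of all genes. In B cell-like cells 6 of 65 such genes were higher and 6 lower, beside 9.9% and 18.8% of genes. NK cell-like cells had 6 of 61 higher and 7 lower, beside 8.72% and 11.4%. Regulatory T cell-like cells had 9 higher and 9 lower of 60, beside 12.5% and 14.4%, and plasmacytoid dendritic cell-like cells 14 higher and 5 lower of 56, beside 10.6% and 9.67%. The classes with a small summed member ratio thus differed in how many of these genes passed the limit.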

How the data were processed

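UMI counts of single CD45+ cells were analysed for 1 WT and 1 KO library. The deposited matrices hold raw counts, whole UMIs per gene and barcode with no normalization, per the file headers and values. Per the submitters' processing notes, bcl2fastq 2.20, Cell Ranger 3.1.0, Seurat 4.0.1 and GRCm38 were used, while the matrix header names version 4.0.0 of Cell Ranger; which one made the matrices could not be settled. No barcode held fewer than 500 UMIs.

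Barcodes needed at least 200 genes, and no more than 15% of their UMIs could be mitochondrial. The doublet caller in scanpy 1.11.5 marked 0 WT and 2 KO cells at an expected rate of 0.06, so it did not work as a filter. The 2 cells were removed. Cells were clustered with scanpy and leidenalg 0.10.2 at resolution 1.0, from 2000 variable genes, 30 principal components and 15 neighbours. The members and pathway lists (158 genes) were left out of the variable genes. Of 25 clusters, 6 stayed unnamed (21.3% of WT and 14.0% of KO cells). Marker lists were fixed, and that of plasmacytoid dendritic cells held the member Bst2. The limits for naming were chosen with the clusters in view.

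UMIs were summed per class and divided by the class total to give CPM. Exact Poisson intervals for CPM, exact conditional binomial intervals for ratios and exact Clopper-Pearson intervals for shares (scipy 1.17.1, 95%) cover counting error only. A class was compared with at least 50 cells in each library. A gene was counted with at least 20 UMIs over both libraries, and as higher or lower at a log2 ratio of 0.5 either way. A class at 0 was set to a floor of 3 counts. The ratio intervals and the 0.5 limit were tested on simulated counts with counting error only, and the thinning was checked on real cells. The other steps were not tested in this way. In macrophage-like cells each member was named. In other compared classes the 3 largest and 3 smallest ratios were, and for likeness the 10 closest genes. Depth differed (median 4398.5 and 8013 UMIs), so cells were thinned to 2000 UMIs where single cells were compared. 50-base words of the last 600 transcript bases (GENCODE M21) showed shared 3' sequence. It was above 10% for 9 members. Exons of 10 members overlap those of another gene, Usp18, Oasl1, Dhx58, Eif2ak2, Slfn5 and Ifi35 on the other strand, and no source used here says whether counting used strand. A few genes that the lists or rules would name are not reported here. The members and lists were chosen with earlier results of these data known. The alternatives cover clustering, filters, doublets, thinning, weighting and limits. Those that leave out shared barcodes, or cells with lymphocyte markers, and the split of classes into clusters were chosen after seeing the data.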

Additional observations from a re-analysis of the deposited data

How the results depend on the processing

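No paired analysis was possible because each genotype had 1 library and no replicate number. The log2 ratio of the summed members in macrophage-like cells (0.70) was above 0.5 under each of 13 alternatives, from 0.64 to 0.88. It was 0.74 with components centred per library, which redrew the classes as described below. It was 0.78 as the median over members, 0.88 without Bst2, Slfn2 and Stat2, 0.66 with cells thinned to 2000 UMIs, and 0.68 or 0.64 without cells holding 20 or 10 lymphocyte marker UMIs. In monocyte-like cells (0.70) it was above 0.5 under each of 14. It was 0.58 with the members among the variable genes, 0.64 as a mean over cells, 0.62 with the top 6% of doublet scores removed, 0.76 as the median over members, 0.81 without Bst2, Slfn2 and Stat2, 0.67 thinned, and 0.67 or 0.59 without cells holding 20 or 10 lymphocyte marker UMIs. At a log2 limit of 1, 15 members were higher in macrophage-like and 14 in monocyte-like cells. No share of all genes at that limit was available to set beside these counts.

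The share of high macrophage-like cells in WT and KO moved with its definition, to 44.8% and 68.0% at 5 members, 6.71% and 19.4% at 12 members, 39.4% and 62.3% at 10 member UMIs, 6.88% and 18.1% at 1000 UMIs, and 59.5% and 83.1% without thinning. It was above the WT share in KO in each of these. In cDC2-like cells 10 of 14 alternatives left the summed ratio above 0.5 (0.48 to 0.59). The ratio ran from 0.10 to 0.37 in CD8 T, 0.12 to 0.36 in migratory dendritic and 0.10 to 0.44 in plasmacytoid dendritic cell-like cells. The sign was not stable in B (-0.08 to 0.14), NK (-0.06 to 0.12), regulatory T (-0.23 to 0.03) and melanoma-like cells (-0.32 to 0.77). At resolution 0.6 a single cluster with Thbs1, Ccl2 and Ccl7 among its leading genes (979 WT and 1384 KO cells) was named monocyte-like, so its 0.70 there is not for the same class. With components centred per library the monocyte-like cluster held 767 WT and 1051 KO cells. Some clusters came almost wholly from 1 library, such as a CD4 T cell-like one (0 and 672) and a cDC2-like one (509 and 11). The macrophage-like and monocyte-like values of that run are thus not for the same classes either. The only macrophage-like cluster left, led by Ccl8 and Pf4 (68 and 49 cells), was too small for a value, as were melanoma-like cells, and with centred components CD8 T cell-like cells gave none. Depth limits the classes with few UMIs per cell, and the single library per genotype limits every difference.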

Other observations

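Some cells outside the 12 compared classes also held many member UMIs. In neutrophil-like cells, another class in which Lyz2-Cre acts, only 23 KO cells were found beside 141 WT cells. Their members summed to 4482 CPM in WT and 7029 CPM in KO, a log2 ratio of 0.65 (0.50 to 0.80). Slfn4 was at 242.3 and 990.4 CPM (2.03, 1.55 to 2.50), Samd9l at 95.5 and 351.4 CPM (1.88) and Isg15 at 195.8 and 511.2 CPM (1.38, 0.74 to 1.99). Bst2 was at 230.1 and 31.9 CPM from 94 and 2 UMIs. Isg15 was thus higher by a log2 ratio of 0.5 or more in this class, though in 0 of the 12 compared ones.

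Of the 6 unnamed clusters, cluster 13 (207 WT and 212 KO cells), with Slfn4 and Stab1 among its leading genes, had member sums of 4739 and 7300 CPM (0.62, 0.54 to 0.71), and 19.2% of its WT and 44.8% of its KO cells were high after thinning (10 of 52 and 43 of 96). Slfn4 is a member and was not used for the clustering. Cluster 12 (298 and 159 cells) had 2798 and 4203 CPM (0.59). The cluster led by cell cycle genes (394 and 188 cells) had 1968 and 1997 CPM (0.02, -0.03 to 0.07). Cluster 17, with immunoglobulin genes in the lead, had 213 WT and 15 KO cells and sums of 2239 and 1652 CPM (-0.44).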
